A study of Mus musculus with 3 samples.

Results

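The regenerating islet-derived (Reg) genes of the mouse were followed across the transcriptome of intestinal epithelial cells (IEC) taken from organoids that shared their culture with innate lymphoid cells of type 3 (ILC3). The 7 members were chosen by name (Reg1, Reg2, Reg3a, Reg3b, Reg3d, Reg3g and Reg4), and all 7 were found among the 35824 genes of the count table. The 3 libraries, named A, B and C, are of 1 condition, IEC + ILC3. Small intestinal organoids (SIO) came from female CD45.1 C57BL/6 mice, aged 6 to 8 weeks by the sample labels (the design text gives a wider range). They were embedded in matrix with ILC3 for 4 days, in medium with EGF, Noggin, R-spondin, IL-2, IL-7 and IL-15, and the epithelial cells were then sorted by flow cytometry. The ILC3 were sorted from the small intestinal lamina propria of GFP reporter mice. By the labels, A and B entered the study's final analysis and C did not. All 3 libraries are called biological replicates, but whether they came from separate organoid lines is not stated, so that p-values here measure the spread between these libraries. Total counts ran from 17946361 in A to 28913885 in C, and 11986 to 12964 genes had at least 10 counts. No value below is a response to ILC3, since libraries of IEC ONLY are not analysed here.

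Reg proteins are small secreted C-type lectins made by the gut epithelium and the exocrine pancreas. Reg3g kills Gram-positive bacteria by binding the peptidoglycan of their wall and keeps bacteria away from the surface of the small intestine, and Reg3b acts against other, mainly Gram-negative, species. In the gut, IL-22 from ILC3 induces both genes through its epithelial receptor and the transcription factor STAT3, and bacterial signals add to this through MyD88. Reg1 and Reg2 were first described in the regenerating pancreas, Reg3d is best known there too, and Reg4 marks enteroendocrine and other deep crypt secretory cells.

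All members but Reg4 lie side by side on chromosome 6 of GRCm38 and fill a stretch of 98.2 kb, from 78370657 to 78468872, in which the annotation lists 6 genes and all 6 are members. From the low coordinate the order is Reg3b (78370657 to 78373466, plus strand), Reg3d (78375874 to 78378865, minus strand), Reg3a (78380709 to 78383827, plus strand), Reg2 (78395623 to 78408106, plus strand), Reg1 (78422711 to 78428667, plus strand) and Reg3g (78466269 to 78468872, minus strand). Reg4 lies apart on chromosome 3, from 98222156 to 98236748 on the plus strand. Each gene has a protein-coding transcript of 6 exons, and coding sequences run from 471 bases in Reg4 to 525 in Reg3a, Reg3b and Reg3d.

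The start regions of Reg3b and Reg3g, the most abundant members, and of Reg3d, the scarcest one and the neighbour of Reg3b, are shown because genes side by side in the cluster were found at such unequal levels. Each window runs from 250 bases before to 50 bases after the RefSeq start on GRCm38.p6 and is read 5′ to 3′ on the strand of the gene. Capitals mark TATAAA, the core of a TATA box, on the strand of the gene before the start, and TTCNNNGAA, the spacing of a STAT site. The windows are chr6:78370635-78370934 (plus strand) for Reg3b, chr6:78468825-78469124 (minus strand) for Reg3g and chr6:78378816-78379115 (minus strand) for Reg3d.
Reg3b: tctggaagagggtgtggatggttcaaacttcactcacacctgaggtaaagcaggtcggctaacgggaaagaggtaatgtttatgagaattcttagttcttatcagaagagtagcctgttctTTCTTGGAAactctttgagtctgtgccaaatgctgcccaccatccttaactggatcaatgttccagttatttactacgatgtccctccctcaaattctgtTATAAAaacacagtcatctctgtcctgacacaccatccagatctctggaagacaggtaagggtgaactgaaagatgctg
Reg3g: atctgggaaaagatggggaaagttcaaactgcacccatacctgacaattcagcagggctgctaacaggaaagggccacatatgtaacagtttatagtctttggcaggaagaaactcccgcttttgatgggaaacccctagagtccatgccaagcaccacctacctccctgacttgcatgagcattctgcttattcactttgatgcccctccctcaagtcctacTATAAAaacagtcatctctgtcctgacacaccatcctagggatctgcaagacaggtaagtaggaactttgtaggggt
Reg3d: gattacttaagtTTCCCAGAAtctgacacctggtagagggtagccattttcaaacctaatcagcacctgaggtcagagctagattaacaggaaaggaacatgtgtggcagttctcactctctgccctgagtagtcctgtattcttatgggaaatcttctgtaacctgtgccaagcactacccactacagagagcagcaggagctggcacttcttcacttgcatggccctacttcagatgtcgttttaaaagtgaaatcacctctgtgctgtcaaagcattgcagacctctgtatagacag

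All 7 members had a window in the RefSeq set. A RefSeq start is not always the start of the gene model given above. The windows of Reg1 and Reg2 begin at 78425733 and 78404905, inside their gene models, and most of the Reg3b window also lies inside its model. The windows of Reg3b and Reg3g were identical in 68.1% of 304 aligned columns, the highest value of the 21 pairs of members, and held the same unbroken run of 29 bases across the start, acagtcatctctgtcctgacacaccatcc. The Reg3b window was identical to that of Reg3d in 52.9% of 333 aligned columns. TATAAA stood before the start on the strand of the gene in Reg3b (29 bases before), Reg3g (27), Reg1 (30) and Reg2 (30), and not in the windows of Reg3a, Reg3d and Reg4. On either strand TATAAA is in 13.6% of 32851 windows of the same length. TTCNNNGAA, which reads the same on both strands in its fixed letters, was found in Reg3b (starting 129 bases before the start) and Reg3d (238 bases before) and is in 8.30% of all windows. These are matches of letters within 300 bases. Reg2, at 1.75 to 2.05 CPM, and Reg3b, at 9201 to 14184 CPM, both held TATAAA, and TTCNNNGAA was found in the scarcest member and in 1 of the pair of abundant ones.

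By CPM, which is not divided by length, Reg3g and Reg3b were the top 2 of all 35824 genes in each of the 3 libraries. Levels were taken as CPM, counts scaled to a common library total with TMM factors. Reg3g had 227346, 278999 and 452380 counts in libraries A, B and C, which are 12426, 12160 and 15814 CPM. It was first in A and C and second in B. Reg3b had 227010, 325438 and 263188 counts, which are 12407, 14184 and 9201 CPM, and was first in B and second in A and C. The next gene was Dmbt1, a scavenger receptor protein of the mucus layer, at 10068 CPM in A and 8892 in C, and mt-Co1 at 10555 CPM in B. Means over the 3 libraries were 13467 ± 2038 CPM (SD, n = 3) for Reg3g and 11931 ± 2526 CPM (SD, n = 3) for Reg3b.

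**Figure D1:**
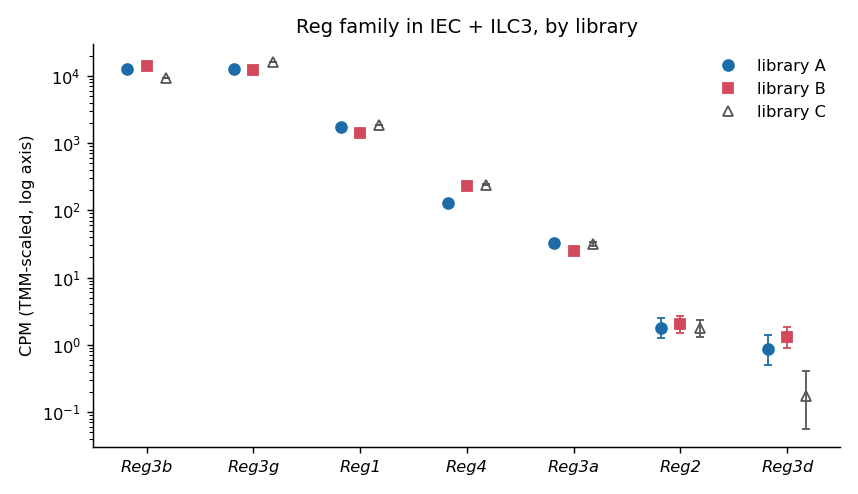
Level of each Reg gene in libraries A (circles), B (squares) and C (open triangles) of IEC + ILC3, in TMM-scaled CPM on a log axis, with exact 95% Poisson intervals that cover counting error only. Reg3b and Reg3g lie at 9201 CPM or above in every library, Reg1 between 1413 and 1866 CPM, and Reg3d is lowest, at 0.175 CPM in C.

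Reg1, a lectin of the pancreatic juice that the small intestine also makes, was the third member. It had 31596, 32421 and 53378 counts in libraries A, B and C, or 1727, 1413 and 1866 CPM, and ranked 48th, 73rd and 46th of all genes. Its mean was 1669 ± 232 CPM (SD, n = 3), and C lay above A by less than A lay above B. Reg4 had 2324, 5345 and 6874 counts, or 127, 233 and 240.3 CPM, at ranks 1535, 720 and 761. Reg4 was thus low in A and close to equal in B and C, with a mean of 200.1 ± 63.4 CPM (SD, n = 3).

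Reg3a, the mouse gene named like the human bactericidal lectin of Paneth cells, had 594, 576 and 905 counts. These are 32.5, 25.1 and 31.6 CPM, with a mean of 29.7 ± 4.03 CPM (SD, n = 3), and Reg3b had 382, 565 and 291 times the counts of Reg3a, which lies 1 gene away from it. Reg2 had 33, 47 and 50 counts, or 1.80, 2.05 and 1.75 CPM, and its counting intervals of 1.24 to 2.53, 1.51 to 2.72 and 1.30 to 2.30 CPM overlapped. Reg3d had 16, 30 and 5 counts. The interval of Reg3d in C, 0.0568 to 0.408 CPM around 0.175, lay below those of A (0.4998 to 1.42 around 0.874) and B (0.882 to 1.87 around 1.31). Such intervals cover counting error only and not the spread between cultures, so that they do not set C apart. Of the members, 6 had at least 10 counts in every library and Reg3d did not.

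**Figure D2:**
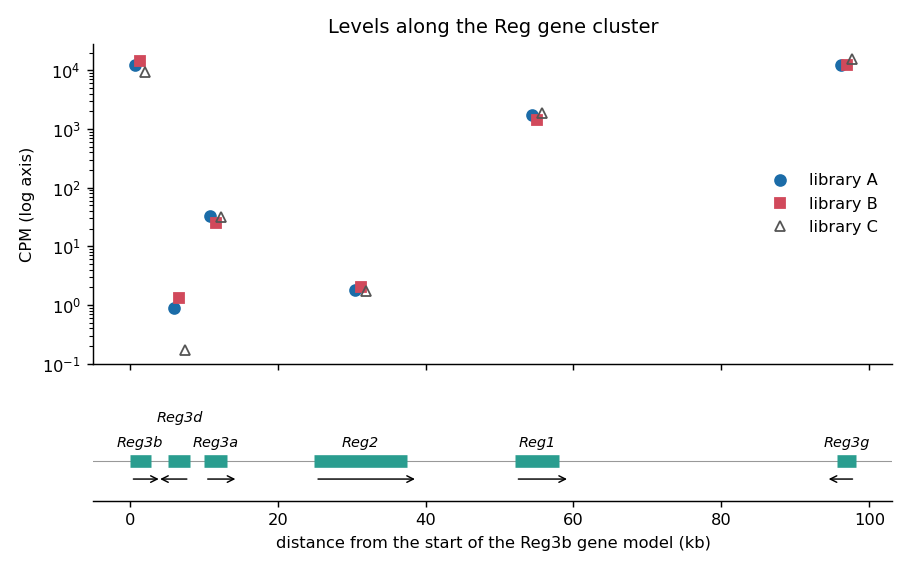
Upper panel, CPM of the 6 clustered Reg genes on a log axis against their place on chromosome 6, as distance in kb from the start of the Reg3b gene model; lower panel, gene models as bars with arrows for the strand. The most abundant genes, Reg3b and Reg3g, are the outermost, and Reg3d, next to Reg3b, is at 0.175 to 1.31 CPM.

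Members were next ordered by CPM per kb of the longest protein-coding transcript. Reg3g was at 17466 ± 2643 CPM per kb, Reg3b at 15237 ± 3226, Reg1 at 1846 ± 257, Reg4 at 196 ± 62.1, Reg3a at 36.0 ± 4.89, Reg2 at 2.67 ± 0.229 and Reg3d at 1.005 ± 0.731 (SD, n = 3 each). Only the ranges of Reg3g (15772 to 20511 CPM per kb) and Reg3b (11750 to 18115) overlapped, and each other neighbour in the order was apart in all 3 libraries. Reg2 and Reg3d were apart by value, but their counting intervals in CPM overlapped in A and B. Reg3b and Reg3g changed places with the length used. With the median length over the transcripts of a gene, which is 552 bases for Reg3b and 1430 for Reg3g, Reg3b was at 21613 ± 4575 and Reg3g at 9417 ± 1425 CPM per kb (SD, n = 3). A Reg3g transcript in the annotation retains an intron and is 2089 bases long, which raises that median. The order of the other members was the same under both lengths. Among all genes, Reg3g ranked 1, 2 and 1 and Reg3b 2, 1 and 3 in libraries A, B and C per kb of the longest protein-coding transcript. With the median length Reg3b ranked 1 in each library and Reg3g 4, 5 and 3.

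**Figure D3:**
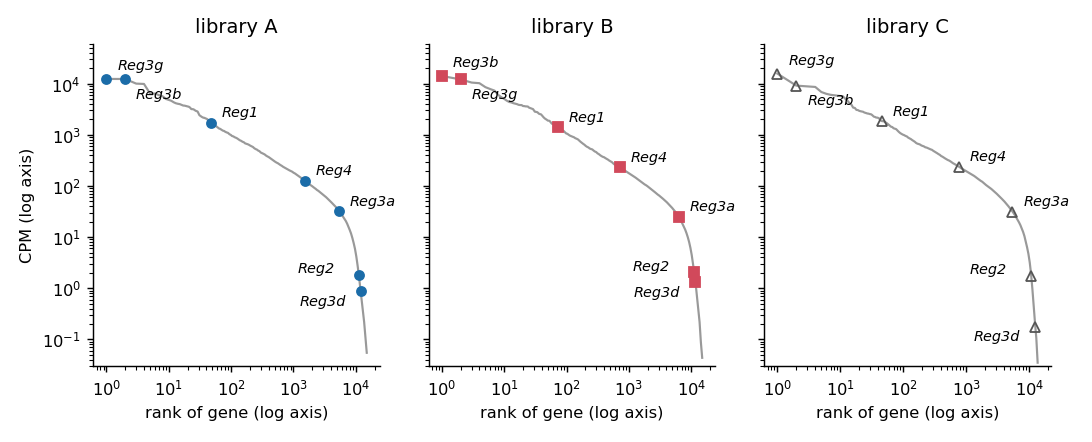
CPM of genes against their rank in each library, both on log axes (grey line), with the Reg genes marked. The members lie from ranks 1 and 2 (Reg3b and Reg3g) through Reg1 at 46 to 73 down to Reg3d at 11676 to 12388.

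The family as a whole held nearly the same share of each library while its make-up differed. The 7 genes took 2.72%, 2.78% and 2.69% of all counts in libraries A, B and C. Their summed level was 26722, 28018 and 27155 CPM, a mean of 27298 ± 660 CPM (SD, n = 3). Reg3b and Reg3g together made up 92.9% of the counts of the family in A, 94.02% in B and 92.1% in C. Reg3b alone was 46.4% of the family in A, 50.6% in B and 33.9% in C, and Reg3g was 46.5%, 43.4% and 58.2%. Reg1 added 6.46%, 5.04% and 6.87%, and the remaining 4 members were each under 1% in every library.

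**Figure D4:**
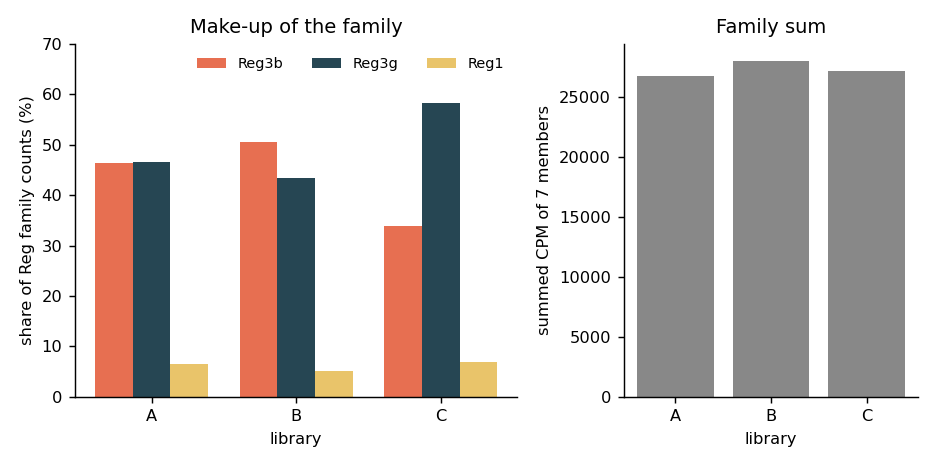
Left, share of all Reg counts (%) held by Reg3b, Reg3g and Reg1 in each library; right, summed CPM of the 7 members. Reg3b and Reg3g are near equal in A (46.4% and 46.5%) and furthest apart in C (33.9% and 58.2%), while the sum lies between 26722 and 28018 CPM.

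The ratio of Reg3b to Reg3g counts was 0.999, 1.17 and 0.582 in libraries A, B and C, with a mean of 0.916 ± 0.301 (SD, n = 3). As a share of the pair, Reg3b was 49.96% in A (exact 95% binomial interval 49.8 to 50.1), 53.8% in B (53.7 to 53.97) and 36.8% in C (36.7 to 36.9). The intervals of the 3 libraries did not overlap, but they cover counting error only and not the spread between cultures. The log2 ratio was -0.0021, 0.22 and -0.78 in libraries A, B and C, so C lay further from A and from B than these lay from each other. With 1 library against 2, an exact two-sided permutation test of this single value cannot give a p below 0.333, and none was run. Reg3b was 7.18 times Reg1 in A, 10.04 times in B and 4.93 times in C, and Reg3g was 7.195, 8.61 and 8.48 times Reg1.

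Reads that belong to both genes could move such a ratio, and the transcript sequences were therefore compared. Reg3b and Reg3g coding sequences were identical in 399 of 525 aligned columns. Of the different words of 31 bases in all annotated Reg3b transcripts, 5 of 1120 (0.446%) also occurred in Reg3g, where they are 5 of 2164 (0.231%), and no other pair of members shared any. Coding identity was higher between Reg1 and Reg2 (78.8% of 519 columns), still with no shared word of that length. Against all other annotated transcripts, on either strand, Reg3a, Reg3d and Reg4 shared no word, while Reg1 shared 51 of 895 (5.70%) with 75 other genes and Reg2 151 of 915 (16.5%) with 11 other genes. Reg2 thus shared the largest part of its sequence, and how the counting divided shared reads was not tested.

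Library C was set against A and B with edgeR's quasi-likelihood test over 13604 genes, Benjamini-Hochberg adjusted, with calls at an adjusted p under 0.1. All 7 members passed the filter on low counts and 0 were called, where 6.56% of all genes tested were called (1.36% higher and 5.2% lower in C). Log2 fold changes of the members ran from -2.61 for Reg3d to 0.42 for Reg4. That no member was called does not show that the levels were alike: 1 library against 2 leaves 1 residual degree of freedom per gene. The spread of a gene's own counts comes from A and B alone, as C is a single library. The fit draws that spread towards a trend over all genes. Each call named here and below thus sets 1 library apart from 2. With at least 10 counts required in every library, 344 genes were called higher and 686 lower in C. Reg3b was lower in C than in both others, at a log2 fold change of -0.54 (standard error 0.28, edgeR adjusted p = 0.298). Reg3g was higher in C than in both others, at 0.36 (standard error 0.27, edgeR adjusted p = 0.448). Reg4 and Reg1 were at 0.42 and 0.24 (standard errors 0.37 and 0.29), and C was above A and B for both genes. Each depended on the library compared: Reg4 was 0.92 higher in C than in A and 0.045 higher than in B, and Reg1 was 0.11 and 0.40 higher. Reg3a, at 0.13 (standard error 0.36), lay in C between A and B. Reg2 was at -0.14 (standard error 1.26) and Reg3d at -2.61 (standard error 2.03, edgeR adjusted p = 0.466), the latter on 5 counts in C. The median log2 fold change was 0.13 over the 7 members and -0.10 over all genes tested.

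Between A and B, the pair the study kept, the members differed unequally. On the log2 scale of CPM, B minus A was 0.88 for Reg4, 0.58 for Reg3d, -0.37 for Reg3a, -0.29 for Reg1, 0.19 for Reg3b, 0.18 for Reg2 and -0.03 for Reg3g. Over 2041 genes with a mean of at least 100 CPM the median absolute difference was 0.23 for A with B, 0.36 for A with C and 0.45 for B with C. Of the 4 members at such levels, Reg4 and Reg1 lay beyond the median for A with B and Reg3g and Reg3b within it, and B was above A for 4 of 7 members. Over the 3 libraries the coefficient of variation of CPM was 8.56% for Reg2, 13.6% for Reg3a, 13.9% for Reg1, 15.1% for Reg3g, 21.2% for Reg3b, 31.7% for Reg4 and 72.8% for Reg3d. Its median over the 8802 genes with a mean of at least 10 CPM was 24.6%, with quartiles of 15.3% and 36.5%. Reg2 and Reg3d, at means of 1.87 and 0.786 CPM, are not among those genes. On 5 to 50 counts per library, their coefficients cannot be told apart from counting error and do not show how steady the 2 genes were.

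Among the other defence genes listed, the alpha-defensin Defa24 of Paneth cells was the only one at a level like that of the Reg3 pair per unit length. Per kb of the longest protein-coding transcript, the scale used for all orders below, Defa24 was at 10364, 14457 and 15176 CPM in libraries A, B and C. Reg3g was above Defa24 in each library, at 16116, 15772 and 20511 CPM per kb, while Reg3b, at 15846, 18115 and 11750, was above it in A and B and below it in C. With the median length the order of Reg3g and Defa24 was the opposite, at means of 9417 and 13332 CPM per kb. In a list of 10 secreted lectins and lectin-like proteins, the most abundant per kb was Itln1, an intelectin of Paneth and goblet cells, at 3410, 4667 and 6895 CPM in libraries A, B and C. Per kb Itln1 averaged 4374 CPM, below Reg3b and Reg3g and above Reg1. The galectin Lgals2 followed at 1330, 1454 and 2618 CPM, then Lypd8, which binds flagella, at 4058, 3835 and 2744 CPM. How many of the 10 listed were called in C depended on the fit. The largest falls in C were in 2 goblet cell products. Zg16 was at 94.8, 157 and 26.01 CPM (a log2 difference of -2.28) and Fcgbp at 675, 827 and 241 CPM (-1.64). Mptx2 and Lgals2 rose the most in C, by 0.95 and 0.91. Over the whole list the median was -0.02.

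**Figure D5:**
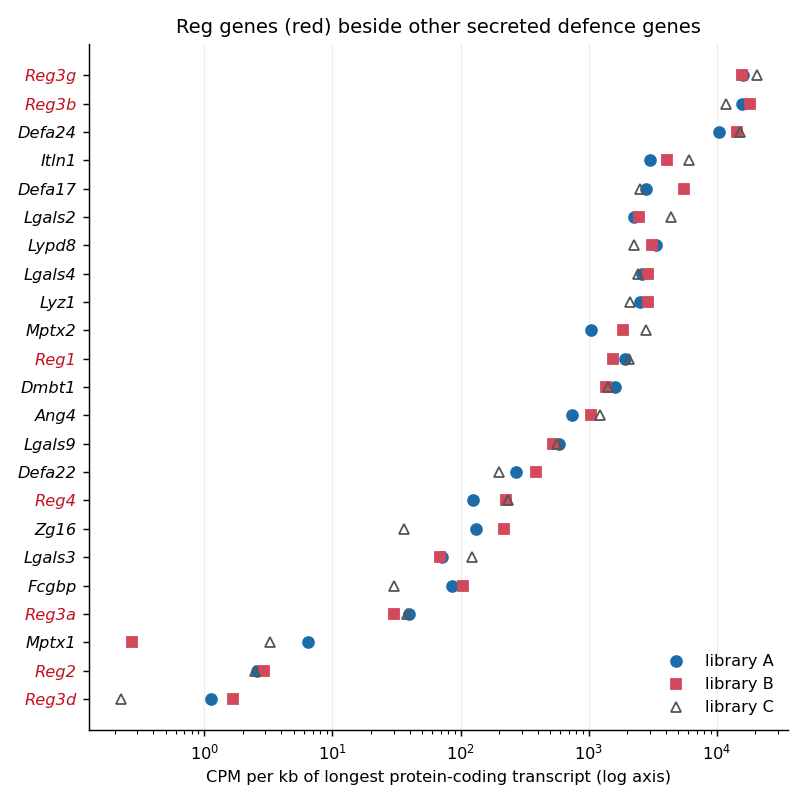
CPM per kb of the longest protein-coding transcript, on a log axis, for the 7 Reg genes (red names) and 16 other secreted defence genes in libraries A, B and C. Reg3g is the highest mean, Defa24 overlaps the range of Reg3b, and Reg1 lies between Mptx2 and Dmbt1.

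A second list held 19 antimicrobial and IL-22-responsive epithelial genes, of which 16 were tested, 0 were higher and 1 was lower in C, beside 6.56% of all genes called, with a median log2 fold change of -0.06. Its most abundant genes per kb were Lyz1 (3188, 3653 and 2641 CPM), Dmbt1 (10068, 8574 and 8892 CPM) and the ribonuclease Ang4 (523, 740.3 and 863 CPM). The 1 gene called was Lcn2, the siderophore-binding lipocalin. Lcn2 had 185, 305 and 0 counts in libraries A, B and C, so that its level in C was at least 112-fold lower than the A and B mean, taken against a floor of 3 counts (0.105 CPM) in C (edgeR adjusted p = 0.0152). It passed the filter through A and B alone, so that it could be called only as lower, and with at least 10 counts required in every library the list had 0 calls. Saa1 and Saa2, acute phase genes that IL-22 can induce, had 0 counts throughout. Saa3, another of that family, was at 196, 228 and 276 CPM, and Fut2, an IL-22 target that adds fucose to surface glycans, at 5.41, 12.03 and 10.6 CPM. Saa3 was highest in C, as Reg3g was, and Lyz1 lowest in C, as Reg3b was, both matched after their values were seen. Ang4 was also highest in C, while Dmbt1 was lowest in B and Fut2 lowest in A. Whether any of these genes varies with a Reg gene was not tested.

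In the pathway that leads to Reg3 genes, the list of IL-22 receptor and STAT3 signalling genes had 10 members, of which 9 were tested, 0 were called higher and 1 lower in C, with a median log2 fold change of -0.21. That 1 was Il22ra1, the receptor subunit particular to IL-22 and related cytokines. It had 58, 249 and 5 counts in libraries A, B and C, or 3.17, 10.9 and 0.175 CPM (a log2 difference of -5.28 with standard error 1.30, edgeR adjusted p = 0.0787). It was no longer called at 0.05, and with 5 counts in C it passed the filter through A and B. The share of the list called, 1 of 9, stands beside 6.56% of all genes, and nothing is read from it. Library C, with the fewest Il22ra1 counts, had the most Reg3g and the least Reg3b. Il10rb, the shared subunit, was the most abundant of the list per kb, at 94.1, 63.2 and 96.6 CPM, before Bcl3 (41.9, 52.7 and 47.96 CPM) and the kinase Jak1 (92.3, 104 and 103 CPM). Stat3 was at 108, 114 and 85.5 CPM, and the feedback inhibitor Socs3, a STAT3 target, at 21.4, 28.4 and 40.4 CPM. Il22 itself had 0 counts in these sorted epithelial libraries, where 3 counts would be 0.164, 0.131 and 0.105 CPM in libraries A, B and C.

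A list of 10 genes for a proposed Reg receptor and for the MyD88 pathway, of which 8 were tested, had a median log2 fold change of -0.34 in C. Extl3, a glycosyltransferase that has been described as a receptor for Reg proteins, was at 16.8, 23.4 and 10.3 CPM. The most abundant per kb were Myd88, the adaptor of Toll-like receptors, at 52.4, 55.7 and 69.6 CPM, Irak1 at 12.8, 17.6 and 21.2 CPM and the ubiquitin ligase Traf6 at 35.6, 41.8 and 2.45 CPM. The largest falls in C were those of Traf6 (a log2 difference of -3.98) and Tlr2, a receptor for bacterial lipoproteins (-6.83). Tlr2 had 127, 232 and 2 counts in libraries A, B and C and so passed the filter through A and B. Of 9 proteases that could trim Reg proteins, 6 had 0 counts in all 3 libraries, namely the trypsins Prss1, Prss2, Try4, Try5 and Try10 and the enteropeptidase gene Tmprss15. The other 3 were Mmp7, the matrix metalloprotease of Paneth cells (590.3, 864 and 776 CPM), Tmprss2 (531, 519 and 514 CPM) and St14 (198, 246 and 98.8 CPM). St14 was the 1 call of the list, lower in C (a log2 difference of -1.17, edgeR adjusted p = 0.0932), and was lost with DESeq2 size factors (edgeR adjusted p = 0.103). The median of the 3 tested was -0.04.

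Markers of the cells that could carry Reg transcripts were read beside them, and in such bulk libraries fewer cells of a type and less RNA per cell cannot be told apart. The Paneth list of 9 genes summed to 14170, 19900 and 20980 CPM in libraries A, B and C, and the enterocyte list of 12 genes to 12460, 7674 and 8323 CPM, each with 0 calls in C and median log2 fold changes of 0.29 and -0.09. The zeros depended on the fit, and nothing is read from them. DESeq2 and edgeR with no filter called some genes of each list, but also more genes over the whole table than the main fit. The most abundant per kb were Defa24, Itln1 and Defa17 in the first, and Fabp1 and Alpi were among those of the second. The goblet list of 8 summed to 2303, 2893 and 1570 CPM, with a median log2 fold change of -1.11 in C. Muc2, Clca1, Fcgbp and Zg16 were lower there, at -2.23, -2.62, -1.64 and -2.28. The list was not uniform, with Tff3 at -0.58, Atoh1 at -0.16, Spdef at -0.02 and Agr2 at 0.53. Tff3, Agr2 and Zg16 were its most abundant genes per kb. The enteroendocrine list of 10, which is of interest for Reg4, summed to 688, 765 and 668 CPM with a median of -0.87. That median was drawn down by Neurod1, Cck and Gip, each at 0 counts in C and at most 45 counts in A or B. Of the others tested, Chgb, Sct and Tph1 were at -0.04, 0.02 and 0.75, and Chga and Neurog3 at -0.71 and -1.03. The most abundant genes of that list per kb, Chgb (528, 537 and 520.2 CPM), Chga (79.5, 117 and 60.3 CPM) and Neurog3 (46.3, 64.6 and 27.2 CPM), were not lowest in A as Reg4 was. Tph1, of serotonin-making cells (28.9, 37.8 and 56.1 CPM), and Sct, the secretin gene (3.06, 5.93 and 4.58 CPM), were lowest in A, and both were named after their values were seen. The 6 stem and crypt base genes summed to 7496, 9370 and 7616 CPM, mostly Olfm4 (5983, 7853 and 5944 CPM), with 0 calls and a median of -0.02. The 6 tuft genes summed to 38.9, 52.6 and 5.28 CPM. Dclk1, Trpm5 and Pou2f3 were called lower in C, each at 0 counts there. These genes passed the filter through A and B alone, so that they could be called only as lower. With at least 10 counts required in every library no gene of the list was called, and nothing is read from these calls. The part of these shifts in the Reg values was not tested.

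Reg1, Reg2 and Reg3d are also genes of the pancreas, and acinar markers were near absent. Of 10 acinar markers 7 had 0 counts everywhere, the carboxypeptidase gene Cpa1 among them, and the sum of 54.2, 44.9 and 44.3 CPM was almost all Cela1 (48.1, 40.4 and 44.3 CPM). Ctrb1 (6.07, 4.53 and 0 CPM) was called lower in C, having passed the filter through A and B alone, and with at least 10 counts required in every library the acinar list had 0 calls. Of 6 islet markers, 4 had 0 counts everywhere, including both insulin genes, and Pdx1, which the proximal gut also expresses, was at 27.5, 19.8 and 38.8 CPM. Epcam, which marks epithelium, was at 1647, 1733 and 1136 CPM, and Ptprc, the gene of CD45, had 1 count in A and 0 in B and C. The list of 11 ILC3 and lymphocyte genes, 7 of them at 0 everywhere, summed to 45.2, 37.7 and 33.1 CPM. The 9 myeloid and stromal genes summed to 6.01, 7.10 and 3.46 CPM, with Vim called lower in C (0 counts there, and 0 calls with at least 10 counts in every library), and the 5 colon genes to 2.95, 0.349 and 2.34 CPM.

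Regional markers bear on Reg3 genes because these are known to rise towards the ileum, the part of the gut from which the methods say the organoids were made. The bile acid genes that define ileal enterocytes were near absent, Fabp6 at 2, 8 and 0 counts and Slc10a2 at 15, 9 and 14 counts. Gata4, a factor of the proximal small intestine, was at 218, 205 and 115 CPM and Onecut2, another, at 39.4, 43.9 and 36.4 CPM. Cybrd1, of the same regional list, was near absent too, at 3, 15 and 2 counts in libraries A, B and C. Of the 7 regional genes 0 were called in C, and Guca2a (62.1, 59.7 and 69.1 CPM), Gata4 and the iron exporter Slc40a1 (106, 87.7 and 92.5 CPM) were the most abundant per kb. The libraries thus had high Reg3b and Reg3g with few transcripts of the ileal bile acid genes.

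By level over the 3 libraries, measured as the Euclidean distance of log2(CPM per kb + 1) with the median length, the genes nearest to Reg3b included Defa24, an alpha-defensin (distance 1.40), and Eef1a1 (2.80). Those nearest to Reg3g included Defa24 (0.927) and Gm10925 (1.02). With the longest protein-coding transcript Defa24 was still the nearest to both (0.786 to Reg3b and 0.781 to Reg3g). By pattern, that is log2 CPM centred on the mean over the 3 libraries, Reg3b was nearest to Clta, a clathrin light chain (distance 0.00415, at 157, 180.1 and 116 CPM), Ivns1abp (0.0115) and Rexo4 (0.0143). Reg3g was nearest to Kif20a, a mitotic kinesin (0.00457, at 107, 105 and 137 CPM), Exoc3 (0.00489) and Ppif (0.00803). Reg1 was nearest to Gdpd5 (0.00733), Scp2 and Ctdp1, Reg2 to genes that included Thap4 (0.00623) and Eps8l3, and Reg3a to Qrich1 (0.0110), Usp10 and Man2c1. Reg4 was nearest to Snrpd2 (0.0264), Cpsf7 and Ggcx. A pattern over 3 libraries has few free values and 8802 genes were searched, so close matches say little of any one gene.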

How the data were processed

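IEC from 3 SIO and ILC3 co-cultures had been sequenced from SMART-Seq2 libraries. The authors trimmed reads with Trimmomatic 0.39, quantified transcripts of Ensembl release 98 (GRCm38.p6) with Salmon 0.14.1 and used tximport for gene totals. The authors deposited estimated counts per gene, which were already whole numbers. Reads that fit several transcripts are divided by such estimation, and no molecular identifiers were used. Of 35824 genes, 35436 had a symbol in GENCODE M21, an annotation of the same build that also gave transcript lengths. Promoter windows were those of RefSeq.

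CPM used TMM factors (edgeR 4.0.16, R 4.3.3). Intervals are exact Poisson or exact binomial at 95%. edgeR's quasi-likelihood test, after filterByExpr, set library C against the other pair, with Benjamini-Hochberg adjustment and calls under 0.1. The test compares libraries, not conditions, and takes C to vary like A and B. The code was tested on simulated data. DESeq2 1.42.0, other size factors, filters, lengths and left-out libraries were alternatives. The per-kb scale by longest protein-coding transcript was chosen after seeing the data.

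The members and the 17 gene lists were chosen with earlier results of these data known. Named were the members, the 3 genes nearest to them in level (Reg3b and Reg3g) or pattern, their neighbours in rank, and of each list the genes called and the 3 most abundant per kb. Some genes that this rule names are not reported here. Others named from the lists were chosen for their role, with their values known. Python 3.11.15 with Biopython 1.88 compared sequences.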

Additional observations from a re-analysis of the deposited data

How the results depend on the processing

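The summed Reg level of 27298 CPM was 28062 CPM when totals left out the Reg counts, and 26938 to 27586 CPM with 1 library left out at a time. The mean Reg3b to Reg3g ratio of 0.916 ran from 0.790 without B to 1.08 without C. It was 2.37 per kb of the median transcript and 2.44 per kb of the longest transcript, since the longest Reg3g transcript retains an intron, and 0.902 with the longest protein-coding one. The 892 genes called in C against A and B were 2402 with no filter on low counts, 1618 by the DESeq2 Wald test and 276 at an adjusted p under 0.05. Reg3a changed sign, from 0.13 to -0.038, when C was set against A alone, and was 0.33 against B alone, differences with no test. Reg4 moved from 0.42 to 0.92 against A alone and 0.045 against B alone, Reg1 from 0.24 to 0.11 and 0.40, and Reg2 from -0.14 to -0.053 and -0.23. Calls of Il22ra1, St14, Dclk1, Pou2f3 and Vim were lost at 0.05, and those of St14 and Dclk1 with DESeq2 size factors. No paired analysis was possible because all 3 libraries are of 1 group. Reg2 and Reg3d, with 5 to 50 counts, are limited by depth.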
